A study of Homo sapiens with 6 samples.

Results

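The unfolded protein response and the integrated stress response were examined in EA.hy926 cells after 8 h of low oxygen. The 41 members were chosen with earlier results of these data known and were taken by symbol. They were a fixed list of endoplasmic reticulum (ER) stress sensors, ER chaperones, and target genes of the transcription factor ATF4. Of these, 40 were found among the 22153 genes of the deposited table. The other, VLDLR-AS1, an antisense transcript at the VLDL receptor locus, was not found there by symbol. It enters only the counts of promoter letters below. Cells kept at 1% oxygen for 8 h (hypoxia, 3 libraries) were compared with cells at 20% oxygen (normoxia, 3 libraries). EA.hy926 is an immortal hybrid of umbilical vein endothelial cells and a lung carcinoma line, so both groups share a carcinoma parent and come from a single cell line. All libraries were polyadenylated RNA.

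When unfolded proteins collect in the ER, the sensors IRE1 (gene ERN1), ATF6 and PERK (gene EIF2AK3) start separate branches. IRE1 splices the mRNA of XBP1, ATF6 is cut to release a transcription factor, and both raise chaperones, oxidoreductases and degradation factors of the ER. PERK and its cytosolic relative GCN2 (gene EIF2AK4) phosphorylate the initiation factor eIF2, which lowers most translation, raises translation of ATF4 and so turns on genes of amino acid supply and of the stress programme. Severe oxygen shortage is known to activate PERK, and disulfide formation in the ER uses oxygen as its final electron acceptor. Splicing of XBP1, cleavage of ATF6 and phosphorylation of eIF2 cannot be read from gene-level counts, so the data describe transcript levels only.

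Many ER chaperone promoters carry the ER stress response element (ERSE), in which CCAAT and CCACG stand 9 bases apart, or the shorter ERSE-II, in which ATTGG and CCACG stand 1 base apart. In the RefSeq promoter windows (GRCh38.p14, 250 bases before to 50 after each annotated start), searched on both strands, ERSE letters were found in 8 of 38 members with a window, against 0.0916% of all 27305 genes with one. ERSE-II letters were found in 3 members, against 0.0696% of all genes. The sites are shown in motif orientation, 5′ to 3′, because they are a sequence feature that 7 of the 11 chaperone members have. Since these elements are known from ER chaperone promoters, their share among the members is not an independent result. DNAJB9, DNAJB11, DNAJC3 and MANF had neither set of letters, and PDIA6, XBP1, ERO1B and HERPUD1 below belong to other branches. Capitals mark the fixed letters and lower case the spacer, and the strand is that on which the letters read.
HSPA5 (chr9:125241391-125241409, minus strand): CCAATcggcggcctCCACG
HSP90B1 (chr12:103930216-103930234, plus strand): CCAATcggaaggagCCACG
HSP90B1 (chr12:103930321-103930339, minus strand): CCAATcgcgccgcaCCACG
CALR (chr19:12938384-12938402, minus strand): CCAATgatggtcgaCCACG
CANX (chr5:179698778-179698796, plus strand): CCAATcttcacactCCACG
PDIA6 (chr2:10812853-10812871, minus strand): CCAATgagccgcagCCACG
CRELD2 (chr22:49918554-49918572, minus strand): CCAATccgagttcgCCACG
XBP1 (chr22:28800603-28800621, minus strand): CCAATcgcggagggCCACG
ERO1B (chr1:236282183-236282201, plus strand): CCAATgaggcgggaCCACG
HYOU1 (chr11:119057380-119057390, plus strand): ATTGGaCCACG
HYOU1 (chr11:119057274-119057284, plus strand): ATTGGaCCACG
HERPUD1 (chr16:56932025-56932035, plus strand): ATTGGgCCACG
SDF2L1 (chr22:21642114-21642124, minus strand): ATTGGtCCACG

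Values below are size-factor-scaled reads unless stated otherwise. The deposited signal proved to be whole reads per gene divided by 1 size factor per library, and each library held 17226736 to 18652704 reads in genes. Levels of different genes are compared only after division by summed exon length, on an FPKM scale. Differences are hypoxia minus normoxia on the log2(FPKM + 0.1) scale, with 95% intervals and Benjamini-Hochberg adjusted p-values from a limma fit over the 10246 genes that reached an FPKM of 1 in 3 or more libraries. This filter kept 38 of the 40 members, and ERO1B and ASNS fell below it. Whether replicates were separate cultures is not in the labels, and the p-values then reflect no more than the variation among these libraries, which may be technical. The hypoxia response itself was present: 10 genes, 0.0976% of those tested, passed an adjusted p of 0.05, all higher in hypoxia, among them BNIP3 and the glycolytic genes PGK1 and LDHA. Of the endothelial markers, 10 of 12 passed the filter, with EMCN and CLDN5 below it, and their summed FPKM was 627 to 1640 in hypoxia and 580 to 1210 in normoxia. Of 7 epithelial markers 4 passed, with EPCAM and KRT19 below the filter and CDH1 not analysed here, and the list summed to 623 to 967 in hypoxia and 699 to 1130 in normoxia. Fibroblast and mural markers (3 of 8 passed) summed to 13.7 to 15.0 in hypoxia and 9.77 to 21.7 in normoxia, and leukocyte markers (1 of 6 passed) to 1.11 to 2.87 in hypoxia and 0.51 to 3.25 in normoxia. The libraries also differed in a trend with gene GC content, from -0.16 to 0.28 log2 units per 10 percentage points in hypoxia and from -0.44 (replicate 3) to 0.36 (replicate 1) in normoxia, and after a correction for it no member was called and the log2 difference of ERO1A was 1.03.

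No member passed the test in either direction. The counts were 0 of 38 by limma, 0 by edgeR and 0 by DESeq2, against 0.0976%, 0.0976% and 0.488% of all genes (for DESeq2, 0.439% higher and 0.0488% lower in hypoxia). At an unadjusted p under 0.05 the count was 1 member by each tool, and it was ERO1A each time, beside 2.68%, 2.42% and 2.89% of all genes. Hypoxia and normoxia values did not overlap in 1 of the 38 members, again ERO1A, beside 7.48% of all genes tested, 4.76% with hypoxia above and 2.71% with hypoxia below. The median log2 difference was 0.08 over the members and 0.0037 over all genes tested, with 25 of 38 members above 0 (65.8%) and 50.6% of all genes.

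A missed threshold does not show that levels were equal, so the intervals carry the result. In 28 of 38 members (73.7%) the 95% interval lay within a 2-fold change either way, against 58.4% of all genes tested. In 3 of 38 members, CRELD2, PDIA3 and PPP1R15B, it lay within 1.5-fold, beside 604 of the 10246 genes tested. The upper ends of the intervals ran from 0.35 for HSPA5 to 1.72 for ERO1A. The design had little power near 2-fold. Reads were simulated for the 10246 genes tested, with 200 genes drawn at random and changed 2-, 4- or 8-fold in each of 5 simulations. The fit recovered 8.36% of genes changed 2-fold and 78.2% of those changed 4-fold, and 6.23% of its calls were false. Simulated reads were drawn independently for each gene and library, without the GC trends of the real libraries. The rates also depend on the 200 changed genes, while 10 genes passed in the data. They may therefore be too high for the real libraries.

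**Figure D1:**
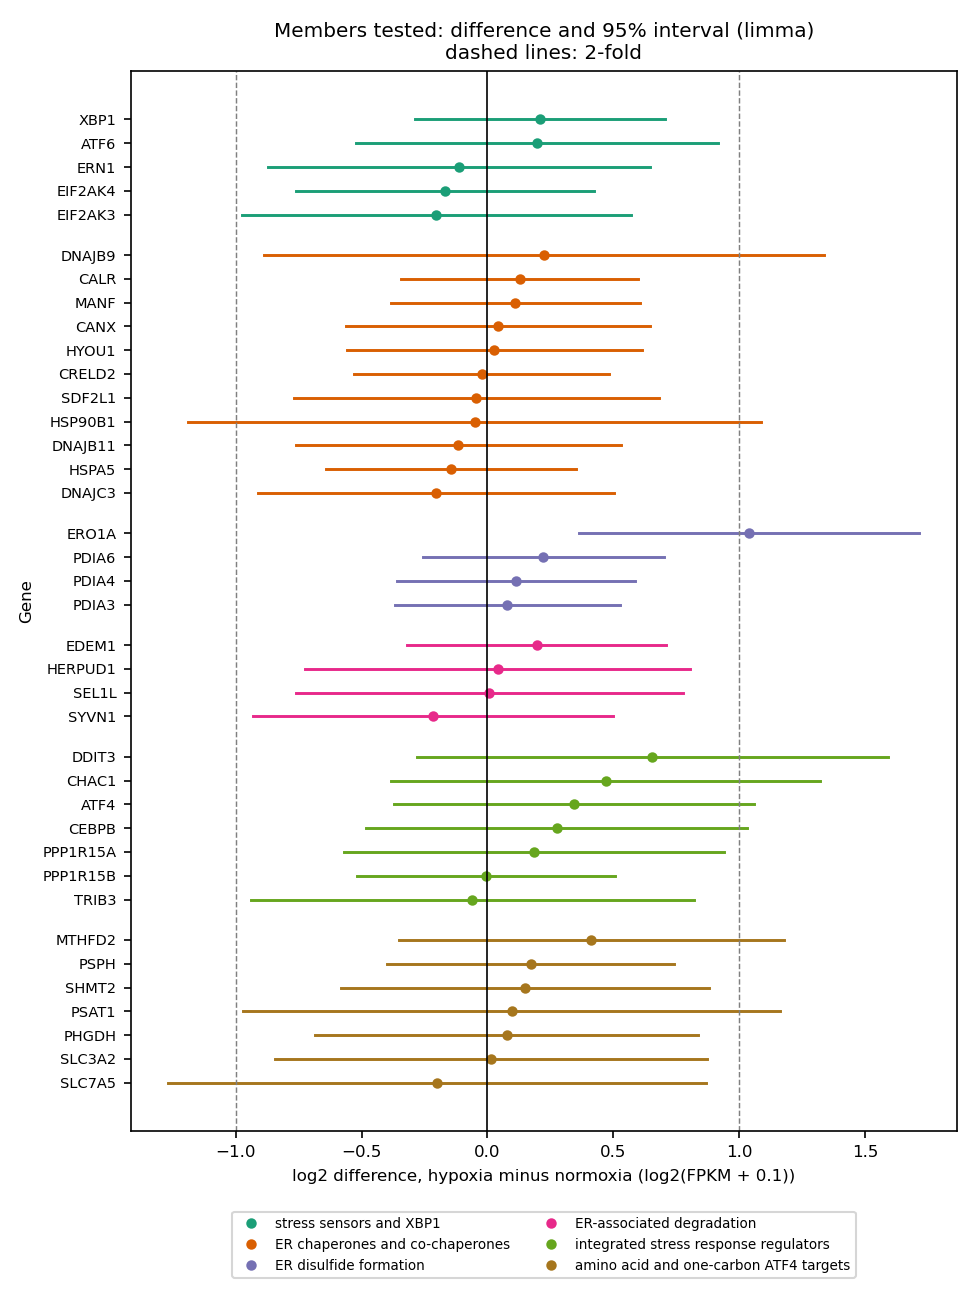
Log2 difference between hypoxia and normoxia (x axis, log2(FPKM + 0.1) scale) for the 38 members tested, in rows by branch. Points are the fitted differences and bars the 95% intervals from limma, and the dashed lines mark a 2-fold change. The interval of ERO1A, 0.36 to 1.72, is the only one that leaves out 0.

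The kinase sensors had low transcript levels, and no member of the sensor branch passed the test. EIF2AK3, the PERK kinase, had 89.2, 127 and 76.0 scaled reads in hypoxia, against 99.6, 102 and 134 in normoxia. ERN1, the IRE1 kinase and endonuclease, had 367, 714 and 395 in hypoxia, against 583, 537 and 425 in normoxia. In both genes the hypoxia values fell on both sides of normoxia ones, and the log2 differences were -0.20 (95% interval -0.98 to 0.57) and -0.11 (-0.87 to 0.65). EIF2AK4, the GCN2 kinase that senses uncharged tRNA, had 541, 648 and 772 in hypoxia and 792, 754 and 653 in normoxia. Its log2 difference was -0.17 (-0.76 to 0.42), with the groups overlapping.

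ATF6, the membrane-bound transcription factor, had 1734, 1100 and 2076 scaled reads in hypoxia and 1044, 1490 and 1684 in normoxia. XBP1, the transcription factor made active by IRE1 splicing, had 2500, 2238 and 1889 in hypoxia and 2095, 1578 and 2068 in normoxia. Both overlapped between groups, with log2 differences of 0.20 (-0.52 to 0.92) for ATF6 and 0.21 (-0.29 to 0.70) for XBP1. Per length the order was XBP1, ATF6, EIF2AK4, ERN1 and EIF2AK3, at mean FPKM of 41.0, 11.7, 3.08, 2.55 and 1.01 in hypoxia and 35.6, 10.0, 3.45, 2.67 and 1.16 in normoxia. EIF2AK4 and ERN1 lay within their spread of each other in hypoxia, with SDs of 0.54 and 1.00. The branch had a median log2 difference of -0.11, with 2 of 5 above 0 and all 5 intervals within 2-fold.

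None of the 11 ER chaperones passed the test, and their levels per length ranged widely, from CALR at a mean FPKM of 532 over 6 libraries to DNAJC3 at 3.58. HSPA5, the Hsp70 chaperone BiP that binds the sensors, had 20191, 19394 and 15629 scaled reads in hypoxia, against 18589, 17963 and 24808 in normoxia. The highest and the lowest of these libraries were a normoxia and a hypoxia one, and the log2 difference was -0.15 (-0.64 to 0.35), an upper end of 1.28-fold. CALR, the calcium-binding lectin chaperone calreticulin, had 27265, 27118 and 25620 in hypoxia, against 28490, 25736 and 19821 in normoxia (log2 difference 0.13, -0.34 to 0.60). Per length CALR stood highest of all members, at an FPKM of 553 ± 18.9 in hypoxia and 512 ± 91.8 in normoxia (SD, n = 3 each), with HSPA5 next at 265 ± 35.1 in hypoxia and 294 ± 54.5 in normoxia.

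BiP co-chaperones DNAJB9 and DNAJC3 had within-group SDs of 0.76 and 0.36 on the log2 scale, above the 0.23 of HSPA5 and 0.19 of CALR. DNAJB9, a J-domain protein that also restrains IRE1, had 1144, 538 and 619 in hypoxia, against 442, 419 and 1286 in normoxia. Its hypoxia replicate 1 and normoxia replicate 3 stood well above the other 4 libraries, and the log2 difference was 0.22 (-0.89 to 1.34). DNAJC3, a J-domain protein known as an inhibitor of PERK, had 293, 325 and 354 in hypoxia, against 272, 351 and 542 in normoxia (-0.20, -0.91 to 0.50). HSP90B1, the ER paralogue of Hsp90, had the widest within-group spread of the members, an SD of 0.79 on the log2 scale, with 8037 to 10313 in hypoxia and 5090 to 22416 in normoxia. Its normoxia replicate 3 was the high value and normoxia replicate 1 the low one.

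The remaining chaperones overlapped between groups as well. The lectin chaperone CANX ran from 7975 to 9539 in hypoxia and from 6167 to 11702 in normoxia. HYOU1, the exchange factor of BiP, ran from 4473 to 7134 in hypoxia and from 4805 to 6966 in normoxia. The BiP partners DNAJB11 and SDF2L1 ran from 496 to 709 and from 948 to 2023 in hypoxia, and from 523 to 850 and from 1108 to 1544 in normoxia. The secreted stress factors MANF and CRELD2 ran from 1832 to 2528 and from 1377 to 1518 in hypoxia, and from 1664 to 2087 and from 1171 to 1631 in normoxia. The 11 chaperones had a median log2 difference of -0.02, with 5 above 0 and 9 intervals within 2-fold.

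Disulfide formation held ERO1A, the single member among the 38 tested whose groups were separate. The gene (ENSG00000197930, minus strand of chromosome 14, 52639916 to 52695900 in GENCODE 29 on GRCh38) encodes the oxidase that passes electrons from protein disulfide isomerases to oxygen, and it is a known target of the hypoxia-inducible factors. ERO1A had 2540, 4873 and 3700 scaled reads in hypoxia, against 1390, 1798 and 2085 in normoxia. Every hypoxia library lay above every normoxia library, with means of 3704 ± 1166 in hypoxia and 1758 ± 349 in normoxia (SD, n = 3 each), 2.11-fold. The log2 difference was 1.04 (SE 0.29, 95% interval 0.36 to 1.72), with an unadjusted p of 0.00767 and an adjusted p of 1.00 by limma. The adjusted p was 0.186 by DESeq2 and 1.00 by edgeR, so no tool called it over all genes. The log2 difference was between 0.82 and 1.29 in all 16 alternative settings.

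**Figure D2:**
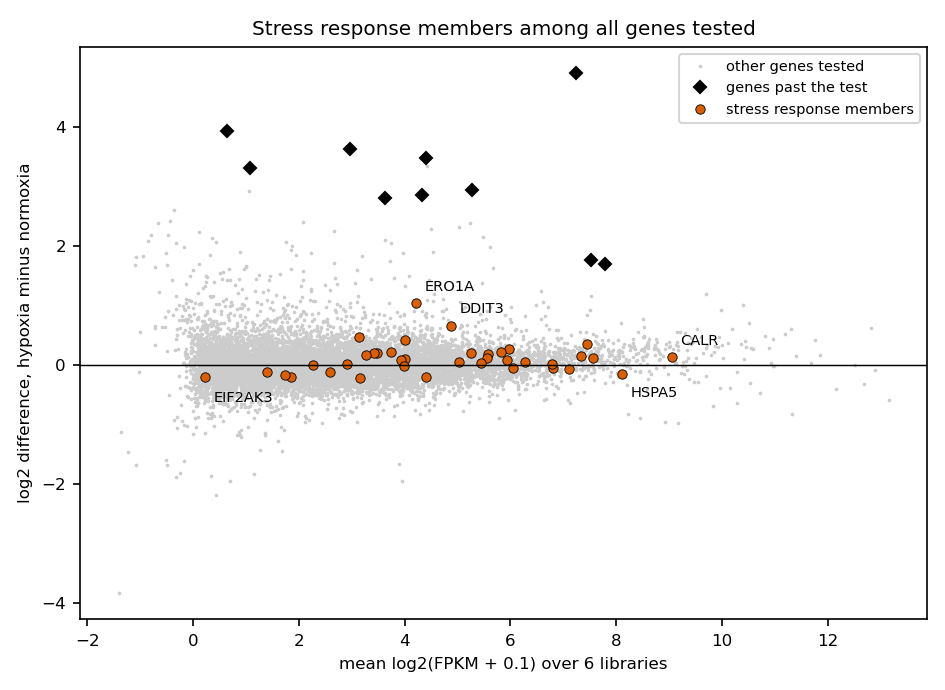
Log2 difference between hypoxia and normoxia (y axis) against the mean log2(FPKM + 0.1) over 6 libraries (x axis) for the 10246 genes tested. Filled circles are the 38 members, diamonds the 10 genes past the limma test, and the members apart from ERO1A and DDIT3 lie between -0.22 and 0.47.

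The 250 bases before the annotated start of ERO1A (chr14:52695559-52695808, minus strand, RefSeq, GRCh38.p14) are shown because it is the member with separate groups among the 38 tested. Capitals mark the core letters of the hypoxia response element, ACGTG or GCGTG, read on either strand, so that CACGC and CACGT are cores on the opposite strand. The same stretch of HSPA5 (chr9:125241344-125241593, minus strand) is also shown, with its ERSE in capitals. ERO1A was picked by its values, and 1 of the 38 members was separate, beside 7.48% of all genes tested. Whether the letters act in ERO1A was not tested.
ERO1A: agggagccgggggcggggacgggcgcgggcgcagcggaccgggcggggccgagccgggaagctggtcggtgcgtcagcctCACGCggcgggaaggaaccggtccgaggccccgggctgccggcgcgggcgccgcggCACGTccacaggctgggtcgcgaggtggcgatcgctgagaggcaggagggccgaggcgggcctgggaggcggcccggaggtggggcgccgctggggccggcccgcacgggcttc
HSPA5: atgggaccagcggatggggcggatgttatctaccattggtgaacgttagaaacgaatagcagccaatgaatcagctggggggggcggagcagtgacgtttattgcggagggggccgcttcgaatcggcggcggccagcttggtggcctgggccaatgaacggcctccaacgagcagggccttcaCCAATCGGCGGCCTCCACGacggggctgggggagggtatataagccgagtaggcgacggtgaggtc
ERO1A had an ACGTG core from 114 to 110 bases before its start and a GCGTG core from 170 to 166 bases before it, both on the opposite strand. A further GCGTG core, on the strand of the gene, lay at bases 28 to 32 after the start. That core is in the searched window but outside the stretch shown. Such short letters are common: ACGTG was in the windows of 15 of 38 members and 24.9% of all genes, and GCGTG in those of 30 members and 40.6%. The CCACG end of an ERSE overlaps such a core wherever the next base is T or C. PDIA3, PSPH and SHMT2 had no window and were not searched, and each group of other members below includes them. The 15 members with ACGTG letters had a median log2 difference of 0.04, and the other 23 tested members 0.08. For GCGTG the medians were 0.10 in the 27 tested members with the letters and 0.08 in the other 11. Among the members with ERSE or ERSE-II letters, 10 were tested, with a median of 0.03 and a range from -0.15 (HSPA5) to 0.22 (PDIA6), beside 0.10 for the other 28.

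The paralogue ERO1B, known mainly from secretory tissue, had few reads. ERO1B had 26, 15 and 15 reads in hypoxia, against 14, 22 and 51 in normoxia, at 27.0, 15.6 and 14.3 scaled reads in hypoxia and 14.8, 20.8 and 48.0 in normoxia. The groups overlapped and the gene was below the filter. Per length ERO1A exceeded ERO1B by 66.9, 222 and 184 times in hypoxia and by 66.6, 61.3 and 30.9 times in normoxia. The hypoxia ratios were all above the normoxia ones, though the lowest of them by very little. The mean log2 ratio was 7.13 ± 0.93 in hypoxia and 5.65 ± 0.61 in normoxia (SD, n = 3 each), a difference of 1.48 (exact two-sided permutation p = 0.10, the smallest this design allows, and 0.30 adjusted over 3 ratios), and it rests on the few ERO1B reads.

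None of the protein disulfide isomerases among the members passed the test. PDIA6 had 4023, 4545 and 4843 scaled reads in hypoxia, against 4071, 4345 and 3151 in normoxia, a log2 difference of 0.22 (-0.26 to 0.70). PDIA4 had 10280, 13365 and 11055 in hypoxia, against 12048, 10857 and 9164 in normoxia (0.11, -0.36 to 0.59). PDIA3, the isomerase that works with CALR and CANX on glycoproteins, had 4238, 5563 and 4453 in hypoxia, against 4510, 4348 and 4539 in normoxia (0.08, -0.37 to 0.52). All 3 overlapped between groups, and whether they differ from ERO1A in their response was not tested. A processed pseudogene of PDIA3 in the table, PDIA3P1, held 4.57% of the reads of its parent.

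Genes of ER-associated degradation, which extracts misfolded proteins to the proteasome, gave no call. HERPUD1, a membrane protein of the degradation complex with ERSE-II letters, had 3269, 4049 and 2108 scaled reads in hypoxia, against 3541, 1993 and 3624 in normoxia. SYVN1, the ubiquitin ligase HRD1, had 733, 1133 and 599 in hypoxia, against 1199, 764 and 858 in normoxia. EDEM1, a lectin-like factor that hands over misfolded glycoproteins, had 1386, 1710 and 1223 in hypoxia, against 1147, 1281 and 1310 in normoxia. The groups overlapped in all of these, with log2 differences of 0.04 (-0.72 to 0.81), -0.22 (-0.93 to 0.50) and 0.20 (-0.32 to 0.71). The HRD1 partner SEL1L ran from 1191 to 1349 in hypoxia and from 799 to 1944 in normoxia. The exons of SYVN1 share 398 bp with the far more abundant FAU on the same strand, so its reads are uncertain. The branch had a median log2 difference of 0.02, and all 4 intervals lay within 2-fold.

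**Figure D3:**
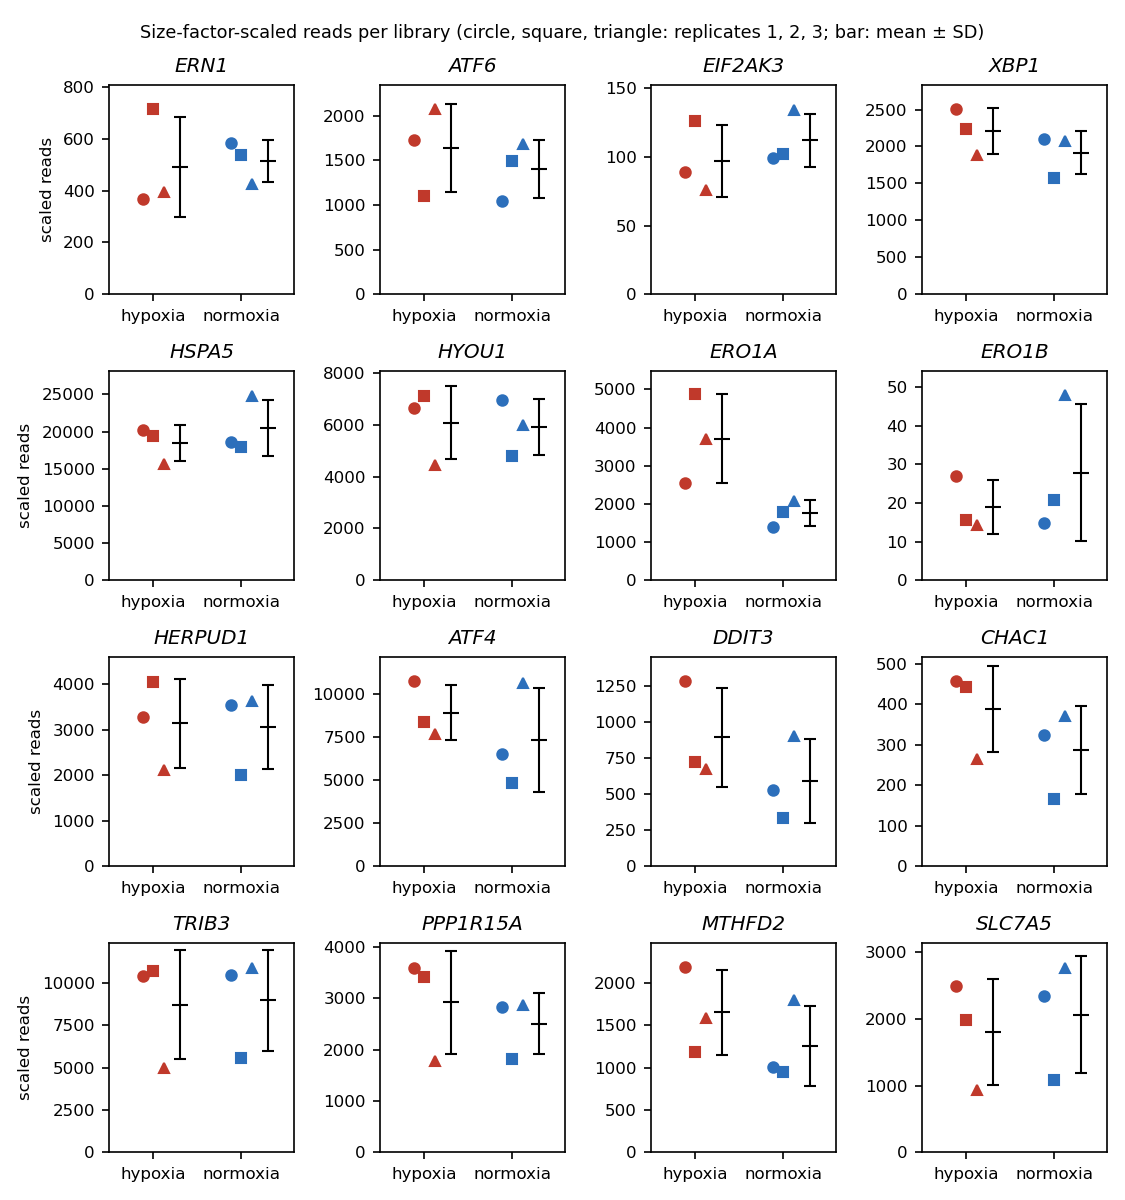
Size-factor-scaled reads (y axis, linear, from 0) of 16 members in the 3 hypoxia libraries (left in each panel) and the 3 normoxia libraries. Circles, squares and triangles are replicates 1, 2 and 3, and bars give mean ± SD. ERO1A is the only one of these members whose groups do not overlap, and hypoxia replicate 3 and normoxia replicate 2 are the 2 lowest libraries for TRIB3, PPP1R15A and SLC7A5.

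The regulators of the integrated stress response had the highest median of the branches, 0.28, with 5 of 7 above 0 and none past the test. ATF4, the transcription factor at the centre of the response, had 10713, 8345 and 7645 scaled reads in hypoxia, against 6527, 4806 and 10628 in normoxia. DDIT3, the pro-apoptotic factor CHOP, had 1286, 722 and 672 in hypoxia, against 530, 331 and 905 in normoxia. In both genes normoxia replicate 3 lay inside the hypoxia range and the other 2 normoxia libraries lay below it. The log2 differences were 0.35 (-0.37 to 1.06) for ATF4 and 0.66 (-0.28 to 1.59) for DDIT3, both with an adjusted p of 1.00 by limma. With single libraries left out they ran from 0.08 (without normoxia replicate 2) to 0.65 (without normoxia replicate 3) for ATF4 and from 0.30 to 1.02 for DDIT3 (without the same libraries), never past the threshold. The exons of DDIT3 share 355 bp, 27.2% of their length, with MARS on the opposite strand, which is more abundant, and whether reads were counted by strand is not known from the labels.

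Targets and partners of ATF4 and CHOP overlapped between the groups. CHAC1, an enzyme that breaks down glutathione, had 456, 442 and 265 in hypoxia, against 323, 166 and 371 in normoxia (log2 difference 0.47, -0.38 to 1.32). TRIB3, a pseudokinase that restrains ATF4 and CHOP, had 10408, 10716 and 4995 in hypoxia, against 10464, 5550 and 10865 in normoxia (-0.06, -0.94 to 0.82). For TRIB3, hypoxia replicate 3 and normoxia replicate 2 stood low, and the other 4 libraries lay close together well above them. CEBPB, a C/EBP factor that partners with ATF4, had 3366, 2595 and 1597 in hypoxia, against 2567, 1477 and 2071 in normoxia (0.28, -0.48 to 1.03).

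The phosphatase subunits that reverse eIF2 phosphorylation differed in spread. PPP1R15A, the stress-inducible subunit GADD34, had 3596, 3404 and 1774 in hypoxia, against 2823, 1825 and 2868 in normoxia (0.18, -0.57 to 0.94). PPP1R15B, the constitutive subunit, had 399, 482 and 435 in hypoxia, against 446, 423 and 450 in normoxia, the narrowest within-group spread of the members (SD 0.10 on the log2 scale). Its log2 difference was -0.01 (-0.52 to 0.51). Per length PPP1R15A exceeded PPP1R15B by 15.2, 11.9 and 6.88 times in hypoxia and by 10.7, 7.28 and 10.8 times in normoxia. The ratios overlapped (difference of the log2 means 0.19, exact two-sided permutation p = 0.60, 0.70 adjusted over 3 ratios).

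Amino acid and one-carbon genes under ATF4 had a median log2 difference of 0.10, with 6 of 7 tested members above 0 and none past the test. MTHFD2, the mitochondrial folate dehydrogenase, had 2188, 1190 and 1588 in hypoxia, against 1014, 955 and 1801 in normoxia (0.41, -0.35 to 1.18). SHMT2, the mitochondrial serine hydroxymethyltransferase, had 20360, 13618 and 11300 in hypoxia, against 12709, 9618 and 18767 in normoxia (0.15, -0.58 to 0.88). In both the range of one group reached well into that of the other. PSPH, the last enzyme of serine synthesis, had 552, 378 and 588 in hypoxia, against 478, 436 and 412 in normoxia (0.17, -0.40 to 0.74). The other serine synthesis genes PHGDH and PSAT1 ran from 2095 to 3726 and from 383 to 1165 in hypoxia, and from 1726 to 3291 and from 408 to 968 in normoxia.

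SLC7A5, an exchanger of large neutral amino acids, and its heavy chain SLC3A2 overlapped between groups. SLC7A5 had 2485, 1983 and 930 in hypoxia, against 2337, 1079 and 2761 in normoxia (-0.20, -1.27 to 0.87). SLC3A2 had 16586, 10102 and 6262 in hypoxia, against 12145, 7388 and 11362 in normoxia (0.01, -0.84 to 0.87). Both were lowest in hypoxia replicate 3 and next lowest in normoxia replicate 2. Per length the ratio of SLC7A5 to SLC3A2 was 0.164, 0.214 and 0.162 in hypoxia and 0.210, 0.159 and 0.265 in normoxia (difference of the log2 means -0.22, exact two-sided permutation p = 0.70, also 0.70 adjusted over 3 ratios).

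ASNS, the asparagine synthetase that is a classic ATF4 target, was nearly silent in the table. ASNS had 19, 10 and 7 reads in hypoxia, against 5, 7 and 5 in normoxia, and an FPKM of 0.155 ± 0.085 in hypoxia and 0.070 ± 0.012 in normoxia (SD, n = 3 each). The scaled values were 19.7, 10.4 and 6.65 in hypoxia and 5.30, 6.63 and 4.70 in normoxia. The lowest hypoxia and the highest normoxia library both held 7 reads, so the groups touch in reads and are apart in scaled values only through the size factors. With no filter on low values its log2 difference was 0.53, with an adjusted p of 1.00 by limma. In GENCODE 29, 1985 bp of its exons (44.6%) are shared with AC079781.5 on the same strand, which itself had a mean of 0.82 scaled reads, and how shared reads were counted is not known from the labels. Its level is therefore uncertain.

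Within both groups the members varied by library. Of the 14 tested members of the regulator and amino acid branches, 10 were highest in hypoxia replicate 1 (71.4%, against 14.5% of all genes tested) and 7 of the 14 were lowest in normoxia replicate 2 (against 6.04% of all genes tested). These libraries were singled out after their values were seen. The median deviation of the 14 members from their own 6-library mean was 0.53, 0.09 and -0.24 log2 units in hypoxia replicates 1 to 3 and 0.02, -0.55 and 0.37 in normoxia replicates 1 to 3. Libraries of each group thus stood on both sides of the mean. The ER branches varied by library too, in different directions. The median deviation in normoxia replicate 3 was 0.37 for the chaperones, 6 of 11 of which were highest there, and -0.26 for the disulfide genes. Degradation genes had medians of 0.38 in hypoxia replicate 2 and -0.31 in hypoxia replicate 3. The median within-group SD was 0.40 log2 units over the members and 0.38 over all genes tested.

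**Figure D4:**
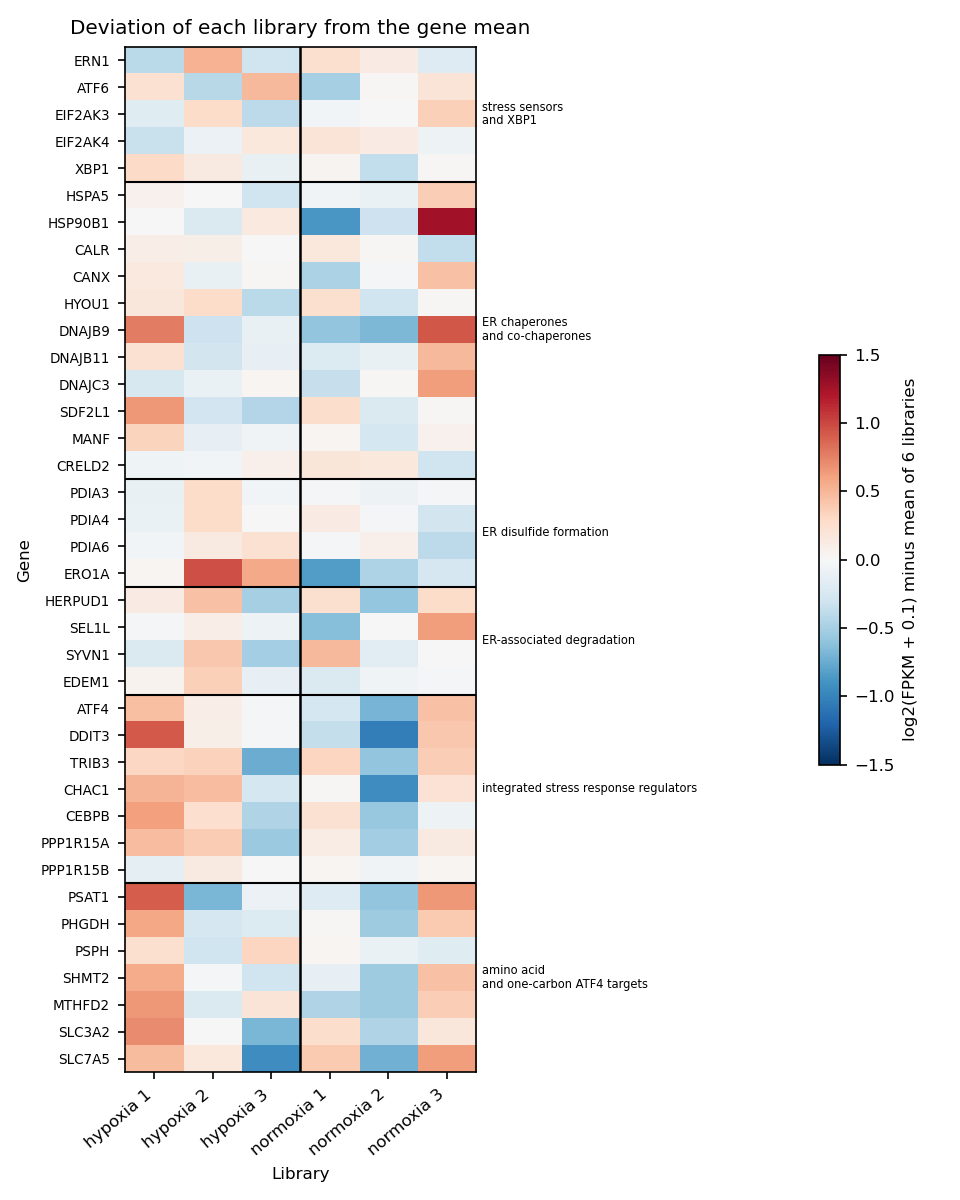
Deviation of each library (columns, hypoxia left, normoxia right) from the mean of 6 libraries on the log2(FPKM + 0.1) scale for the 38 members tested (rows, by branch). Red is above and blue below the mean. In the ATF4 branches at the bottom, hypoxia replicate 1 and normoxia replicate 3 are mostly above the mean and normoxia replicate 2 mostly below it.

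Other genes of the same pathways gave no call either. Of 20 further ER folding and export genes all 20 were tested, with 13 above 0 and a median of 0.11, and the largest differences were -0.42 for the prolyl isomerase FKBP14 and 0.38 for SELENOS, a selenoprotein of ER-associated degradation. Of 11 further degradation genes 10 were tested, with 6 above 0 and a median of 0.12, led by UBE2J1, a ubiquitin-conjugating enzyme of the ER (0.42), and the ATPase VCP (-0.27). Of 11 further sensor and processing genes all were tested, with 3 above 0 and a median of -0.02, led by EIF2AK2, the double-stranded RNA kinase PKR (-0.31), and the transcription factor NFE2L1 (0.23). Of 20 further ATF4 pathway targets 15 were tested, with 10 above 0 and a median of 0.06, led by DDIT4 (2.38) and the death receptor TNFRSF10B (0.77). DDIT4, an inhibitor of mTORC1 that is a known target of both ATF4 and the hypoxia-inducible factors, had 2078, 4824 and 3156 scaled reads in hypoxia, against 1488, 939 and 156 in normoxia. Its groups did not overlap and its interval was 0.62 to 4.15, with an adjusted p of 1.00 by limma and 0.295 by DESeq2. VLDLR was not analysed here.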

How the data were processed

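RNA was sequenced from 3 hypoxia and 3 normoxia libraries of EA.hy926 cells. The submitters' processing notes list CASAVA, HISAT2 2.0.5 and featureCounts 1.5.0-p3, and the mouse build mm9, although all 22153 deposited identifiers are human Ensembl identifiers. The deposited signal, in a table named for FPKM, was whole reads per gene divided by a library size factor (0.944 to 1.06): 100% of values were whole multiples of 1 step per library within 0.05 of a step. Values were divided by summed exon length (GENCODE 29, GRCh38, matched by identifier) and the mean library total. limma 3.58.1 (R 4.3.3, trend and robust variance) was fitted to log2(FPKM + 0.1) with group as the only term. edgeR 4.0.16 and DESeq2 1.42.0 were run on the recovered reads. The fit was tested on simulated reads.

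The members, lists and branches were chosen with earlier results of these data known. Values in every library were given for the sensors, HSPA5, ERO1A, ERO1B, ATF4, DDIT3, PPP1R15A, PPP1R15B, SLC7A5, SLC3A2, ASNS and up to 3 further members per branch with the largest differences. For each further list the 2 largest differences were named. No column of the table was left out. Alternatives were other pseudocounts, filters and scaling, a GC correction, a replicate block and each library left out.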

Additional observations from a re-analysis of the deposited data

How the results depend on the processing

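No alternative called any member: the count was 0 in all 16 settings beside the one reported. The count over all genes was 10. It was 4 without a low-value filter, 27 after the GC correction, 19 with the replicate block, 33 with the replicate block and the GC correction together, 50 by DESeq2, and 1 to 19 when single libraries were left out. Whether the replicate numbers pair the libraries is not known from the labels. Deviations of same-numbered libraries correlated at -0.40, 0.24 and 0.22 across genes. The highest correlations were 0.61, for hypoxia replicate 2 with normoxia replicate 1, and 0.50, for hypoxia replicate 1 with normoxia replicate 3. The deviations also carry the GC trend of each library, so the correlations cannot decide whether libraries were paired. The sensor median of -0.11 was 0.20 with an FPKM filter of 5, which left fewer sensors tested, and -0.17 to 0.0582 with single libraries left out. The median over the members was -0.03 to 0.16 with single libraries left out.

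Of 28 named members tested, 14 kept their sign in every alternative. PPP1R15B turned to 0.0257 with TMM scaling. With single libraries left out the log2 differences of members whose sign turned ran from -0.40 to 0.0582 for ERN1, -0.0011 to 0.46 for ATF6, -0.23 to 0.0015 for HSPA5, -0.0226 to 0.24 for CALR, -0.10 to 0.75 for DNAJB9, -0.42 to 0.0605 for DNAJC3, -0.0395 to 0.16 for PDIA3, -0.24 to 0.30 for HERPUD1, -0.37 to 0.30 for TRIB3, -0.0282 to 0.51 for PPP1R15A, -0.0741 to 0.0591 for PPP1R15B, -0.0884 to 0.40 for SHMT2, -0.34 to 0.36 for SLC3A2 and -0.61 to 0.22 for SLC7A5. The log2 ratio of PPP1R15A to PPP1R15B ran from -0.0582 to 0.51. The causes were not tested. ERN1, EIF2AK3, EIF2AK4, DNAJC3 and PPP1R15B gave no value with the stricter filter. Low read counts limit ERO1B and ASNS.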
